A study of Mus musculus with 10 samples.

Results

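The genes described here encode cation channels that sense heat, chemicals, acid or mechanical force. They are the TRP channels (the TRPC, TRPM, TRPV and TRPA groups with the polycystin Pkd2 and Pkd2l1 and the mucolipins), the acid-sensing channels Asic1 to Asic5, and the Piezo and Tmem63 channels. They were picked by gene symbol, with earlier results of these data known, and make up 37 of the 24411 genes in the table. Of these 37 genes, 22 had enough counts to be tested, 13 had counts below the filter, and 2 (Mcoln3 and Trpv5) had 0 counts in every library.

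TRP channels are tetramers that let sodium and calcium into cells, and several of them open to heat, cold, plant irritants, lipids or oxidative stress. Acid-sensing channels are trimers that open when protons rise outside the cell, as happens at active synapses and in inflamed tissue. Piezo and TMEM63 proteins open when the membrane is stretched. In pain research the best known members (TRPV1, TRPA1, TRPM8, ASIC3 and PIEZO2) act in sensory neurons, whose cell bodies lie in the dorsal root ganglia and whose axons end in the dorsal horn of the cord.

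RNA came from the lumbar spinal cord of mice that had received either paclitaxel, a microtubule-stabilising cancer drug that causes painful neuropathy (5 libraries), or vehicle (5 libraries). The labels used here give no strain, sex, age, dose or time, and do not say whether each library came from a separate animal, so the p-values below reflect the spread among these libraries, which may be technical. The series asks how this treatment changes expression in the cord.

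The libraries held 3676259 to 7791594 counts, and 3 counts in a library corresponded to 0.385 to 0.819 CPM (counts scaled to library size). Markers of the labelled tissue were present in all libraries. The summed level of 4 Hox genes of the lower cord ranged from 168 to 190 CPM under paclitaxel and from 159 to 199.7 CPM under vehicle, and that of 6 neuronal genes from 5259 to 5410 and from 5303 to 5367 CPM. Of the 10 markers of sensory ganglion neurons, Scn10a, Scn11a, Mrgprd, Prdm12 and Avil stayed at 3 counts or fewer in every library, with Mrgprd at 0. The list's summed level (1847 to 2822 CPM under paclitaxel, 2515 to 2901 with vehicle) came mostly from Nefh, a neurofilament gene that cord neurons also express. Of the Schwann cell markers, Pmp2 and Egr2 also stayed at 3 counts or fewer, and the list's sum ran from 6.33 to 7.91 and from 7.05 to 7.70 CPM. Paclitaxel replicate 3 stood apart over all genes, since its pairs with the other paclitaxel libraries had a chi-square over degrees of freedom of 5.08 to 6.93, against 1.62 to 4.6 for every other pair within a group. Vehicle replicate 4 stood apart in the summed genes of meninges and fibroblasts, at 90.1 CPM against at most 64.5 CPM in any other library. Of this sum Igf2 alone gave 27.8 CPM, against a lowest value of 2.76 CPM over the libraries.

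Levels of different genes were compared per kilobase of exon, as CPM per kilobase averaged over the 10 libraries. Tmem63a was highest at 44.3 ± 3.92 (SD, n = 10 libraries), followed by Tmem63b at 39.7. Both encode mechanically gated channels of the plasma membrane. The lysosomal calcium channel gene Mcoln1 was the third at 27.5 ± 1.59 CPM per kilobase, and Asic1, the main proton sensor of central neurons, was at 21.9 ± 2.52. Next came a run of 6 genes between 12.4 and 9.25, in the order Asic2, Trpm2, Tmem63c, Trpm3, Pkd2 and Trpm7. Within this run the ranges over libraries of all neighbours overlapped. Trpm3 gave the highest CPM of all 37 genes (154.5 on average) and ranked only 8 per kilobase, since its annotated exons span 14332 bases. Lower levels followed for Trpv2 (5.59), Pkd2l1 (5.44), Trpc5 (4.22), Trpc1 (3.88), Asic4 (3.10) and Trpm4 (2.47 CPM per kilobase). The lowest tested genes were Trpc4 (1.16), Trpc7 (1.03), Trpc2 (1.02), Piezo1 (0.881) and Piezo2 (0.633). Over the whole order, ranges overlapped for 16 of 21 neighbouring pairs. The 5 steps without overlap lay below Tmem63b, Mcoln1, Asic1, Trpm7 and Trpm4. This order and these steps depend on the exon length used, here the union of exons. With the longest transcript instead, Asic1 was at 26.1, near Mcoln1 at 27.5, and Asic2 was at 15.4 CPM per kilobase. Trpm3, at 12.55, then passed Trpm2 at 12.16. Overlap of ranges was not computed with that length.

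**Figure D1:**
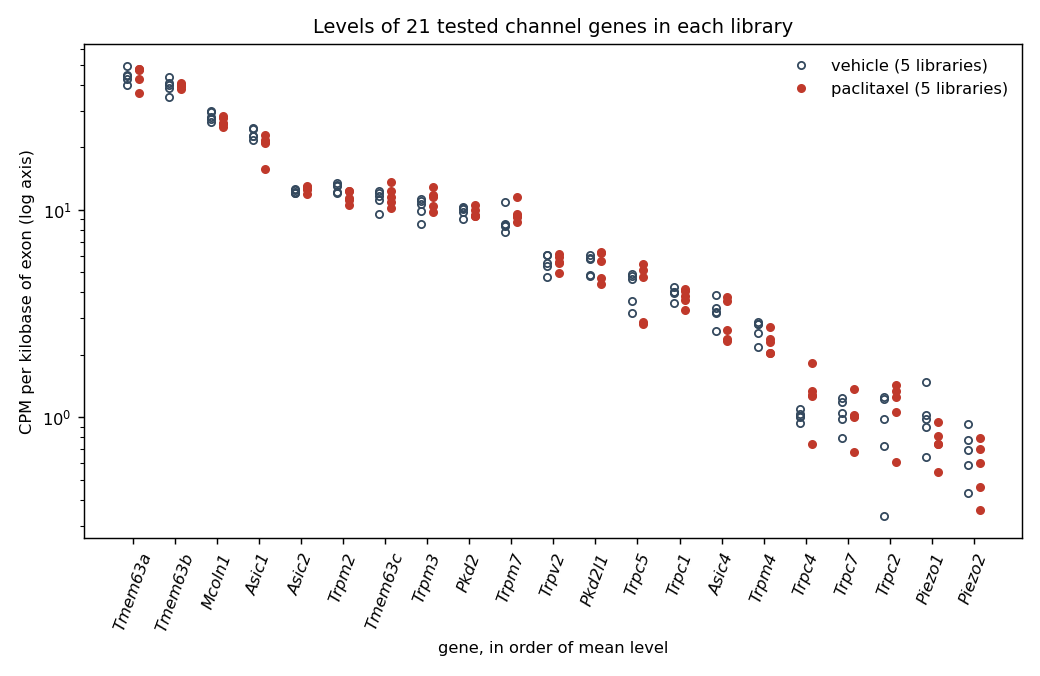
Level of 21 of the 22 tested channel genes in CPM per kilobase of exon (log axis), with 1 point per library, open for vehicle and filled for paclitaxel (5 libraries each). Tmem63a and Tmem63b lie highest and Piezo1 and Piezo2 lowest, and the points of both treatments overlap for every gene shown.

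The comparison of paclitaxel with vehicle found no difference in any of the 22 tested channel genes that passed a threshold over all genes. In edgeR's quasi-likelihood test 0 of 22 had an adjusted p under 0.05 (smallest adjusted p = 0.792), where 0.0% of all 13287 tested genes did, and DESeq2, limma-voom and edgeR's likelihood ratio test also called 0 of the 22. Without adjustment, 2 of the 22 had p under 0.05, Trpm2 and Asic1. Both had lower values with paclitaxel. Of all tested genes 6.07% reached that level, 3.12% with lower and 2.94% with higher values. The 2 of 22 are 9.09%, close to the background share for so few genes. The groups of libraries did not overlap for 0 of the 22, against 1.09% of all tested genes. Fold changes of the 22 genes were small, with 10 values above 0 and 12 below (54.5% below, against 50.9% of all tested genes), a median log2 fold change of -0.01 and a median size of 0.07. Over all tested genes these medians were -0.003 and 0.08. In bulk tissue, fewer cells of a type and less RNA per cell cannot be told apart, and this holds for every value below.

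**Figure D2:**
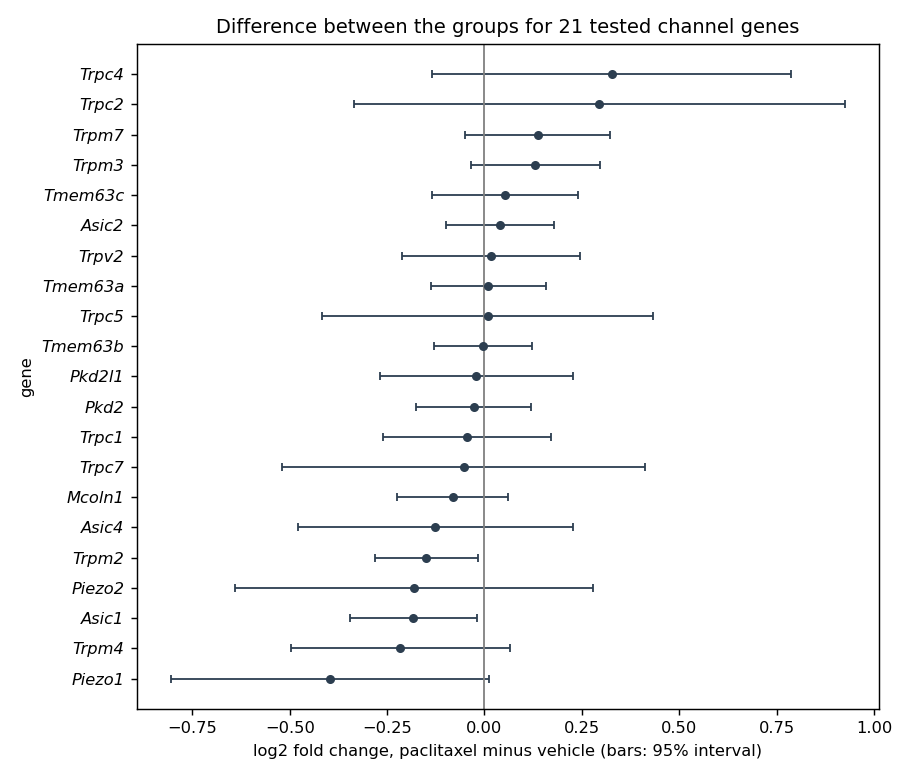
Log2 fold change (paclitaxel minus vehicle) of 21 of the 22 tested channel genes from edgeR, with 95% intervals, ordered by size. Values run from -0.40 for Piezo1 to 0.33 for Trpc4, and the unadjusted intervals of Trpm2 and Asic1 alone exclude 0.

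The melastatin group held the gene of lowest p, Trpm2. It encodes a calcium channel opened by ADP-ribose and oxidative stress, known in microglia and neurons, and lies on chromosome 10 from 77907722 to 77969909 (GRCm38). Trpm2 was at 80.9, 83.0, 76.6, 89.5 and 89.6 CPM in paclitaxel replicates 1 to 5 and at 87.9, 88.7, 95.9, 97.7 and 95.1 CPM in vehicle replicates 1 to 5. All 5 paclitaxel libraries lay below the vehicle mean, which held for 8.65% of all tested genes, and paclitaxel replicates 4 and 5 overlapped vehicle replicates 1 and 2. The means were 83.9 ± 5.61 and 93.1 ± 4.45 CPM (SD, n = 5 each), a log2 fold change of -0.15 (SE 0.06, 95% interval -0.28 to -0.02; edgeR unadjusted p = 0.0296, adjusted p = 0.792). With each library left out it ran from -0.18 to -0.12. The edgeR unadjusted p was above 0.05 without any 1 of paclitaxel replicates 1, 2 and 3 and vehicle replicates 3, 4 and 5. Summed microglial markers, for comparison, ranged from 255 to 335 CPM under paclitaxel and from 254 to 321 CPM under vehicle. Over the 10 libraries no relation of Trpm2 to that sum was detected (Pearson r = -0.278, permutation p = 0.434, adjusted p = 0.542; Spearman rho = -0.345, p = 0.33, adjusted p = 0.55; r = 0.105 without the 2 libraries farthest from the median of the sum).

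Trpm3, Trpm7 and Trpm4 also stayed above the adjusted threshold. Trpm3 encodes a channel opened by heat and by the neurosteroid pregnenolone sulfate. Its level was 184, 149.9, 168.5, 164.5 and 140.2 CPM under paclitaxel and 162.5, 153, 141.9, 157.3 and 122.7 CPM under vehicle. Paclitaxel replicates 1, 3 and 4 lay above every vehicle library, paclitaxel replicates 2 and 5 lay within the vehicle range, and vehicle replicate 5 was lowest of all (log2 fold change 0.13, SE 0.08; edgeR adjusted p = 0.811). Without vehicle replicate 5 the log2 fold change was 0.07, and with a correction for GC content and length 0.08. Trpm7 encodes a magnesium-permeable channel fused to a kinase, present in nearly all cells. It was at 68.0, 66.4, 81.9, 65.5 and 62.4 CPM under paclitaxel and at 77.9, 60.4, 59.8, 59.5 and 55.8 CPM under vehicle. In each group 1 library stood above the rest, paclitaxel replicate 3 and vehicle replicate 1. The log2 fold change of Trpm7 was 0.14 (SE 0.09; edgeR adjusted p = 0.816). It was 0.23 without vehicle replicate 1, 0.07 without paclitaxel replicate 3 and 0.04 with the correction for GC content and length.

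Trpm4 encodes a calcium-activated channel for monovalent cations. It was at 8.67, 9.80, 11.5, 10.1 and 8.62 CPM under paclitaxel and at 11.9, 10.8, 9.24, 11.9 and 12.2 CPM under vehicle. All paclitaxel libraries but replicate 3 lay below the vehicle mean, and the log2 fold change was -0.22 (SE 0.14; edgeR adjusted p = 0.813). A transcribed pseudogene, Rpl14-ps1, lies within the gene's span at 7.89 CPM on average. The other melastatin genes were not tested. Trpm6, the relative of Trpm7 known from kidney and gut, had 1 to 8 counts per library. Trpm1, known from retina, had at most 3 counts, and Trpm5, known from taste cells, and the cold and menthol receptor gene Trpm8 at most 1 count per library.

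**Figure D3:**
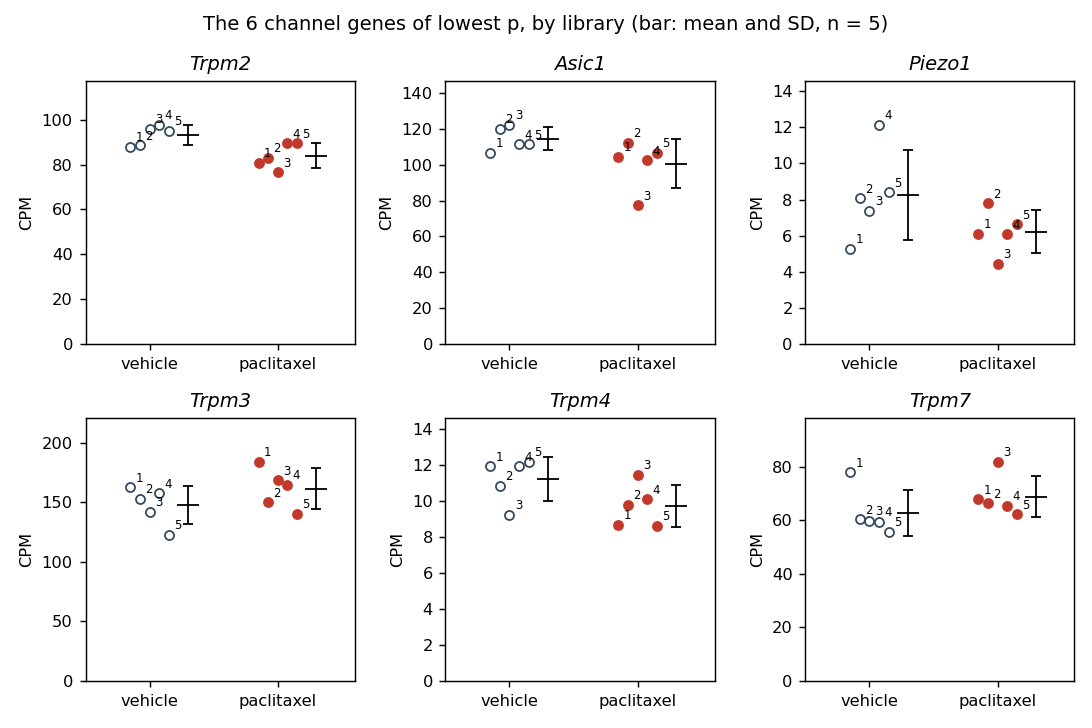
CPM in each library for the 6 channel genes of lowest p, with replicate numbers beside the points and the mean and SD (n = 5) beside each group. The groups overlap in every panel. Asic1 in paclitaxel replicate 3 (77.3 CPM) and Trpm7 in paclitaxel replicate 3 (81.9 CPM) and vehicle replicate 1 (77.9 CPM) lie apart from their groups. Piezo1 is highest in vehicle replicate 4 (12.1 CPM).

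Among the acid-sensing channels, Asic1 and Asic2 were the abundant genes. Asic1 spans 99670197 to 99701130 on chromosome 15. Its level was 104.3, 112.2, 77.3, 102.6 and 106.6 CPM in paclitaxel replicates 1 to 5 and 106.7, 120, 122.1, 111.5 and 111.4 CPM in vehicle replicates 1 to 5. All 5 paclitaxel libraries lay below the vehicle mean, and paclitaxel replicate 2 exceeded vehicle replicates 1, 4 and 5. The means were 100.6 ± 13.5 and 114.3 ± 6.48 CPM (SD, n = 5 each), with a log2 fold change of -0.18 (SE 0.08, 95% interval -0.35 to -0.02; edgeR unadjusted p = 0.0301, adjusted p = 0.792). Without paclitaxel replicate 3, the lowest library, it was -0.10 (unadjusted p = 0.117). That library also had the lowest summed level of 5 motor neuron markers, 175 CPM against 199 to 239.5 in the other paclitaxel libraries and 205 to 254 under vehicle, and the lowest Nefh level of all libraries (1778 CPM). That library was also lowest in the sums for endothelial cells (109 CPM), oligodendrocytes (20800 CPM), ependyma (29.5 CPM) and, narrowly, neurons (5259 CPM). Over all libraries it was not lowest in those for astrocytes, microglia, Schwann cells, meninges, cerebrospinal fluid-contacting neurons or Hox genes. Among the paclitaxel libraries alone it was lowest for astrocytes (4693 CPM), microglia (254.9 CPM, with vehicle replicate 5 at 253.8 CPM) and meninges (52.0 CPM). The part of these levels in the Asic1 value was not tested.

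Asic2, whose product assembles with that of Asic1 and shifts its proton sensitivity, was among the steadiest of the tested genes. It was at 55.1, 55.5, 53.9, 54.0 and 50.6 CPM under paclitaxel and at 51.2, 51.7, 53.0, 51.7 and 54.0 CPM under vehicle. Its coefficient of variation was 3.52% and 2.21%, and its log2 fold change 0.04 (SE 0.07, 95% interval -0.10 to 0.18). The CPM ratio of Asic2 to Asic1 within a library was 0.528, 0.494, 0.698, 0.527 and 0.475 with paclitaxel and 0.480, 0.431, 0.434, 0.463 and 0.485 with vehicle. Each paclitaxel library exceeded the mean of the vehicle libraries, replicate 3 by most, and replicate 5 lay inside the vehicle range. The log2 ratio differed by 0.24 (two-sided exact permutation test, p = 0.0238; no p below 0.00794 can be reached). Adjusted over the 5 channel ratios compared it did not pass (adjusted p = 0.119). The difference was 0.14 without paclitaxel replicate 3 (exact p = 0.0476, adjusted p = 0.238) and 0.28 without paclitaxel replicate 5 (exact p = 0.00794, adjusted p = 0.0397), so whether it passed rested on single libraries.

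Asic4, whose product is not gated by protons on its own, was at 7.27 ± 1.74 CPM under paclitaxel and 8.003 ± 1.14 CPM under vehicle (SD, n = 5 each). The log2 fold change was -0.13 (SE 0.17), with a range from -0.24 without paclitaxel replicate 5 to -0.05 without vehicle replicate 1. Asic3, the sensory neuron member, had 0 to 5 counts per library and lies within the span of Cdk5, which was at 88.8 CPM. Asic5 had 1 count in 1 library.

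Piezo1 and Piezo2 had the lowest levels per kilobase of the tested genes, and Piezo1 had the lowest log2 fold change of them. PIEZO1 is the stretch sensor of blood vessels and many other cells, and PIEZO2 is the touch and body-position channel of sensory neurons. Piezo1 spans 122481698 to 122551329 on chromosome 8. It was at 6.12, 7.80, 4.46, 6.09 and 6.65 CPM under paclitaxel and at 5.28, 8.09, 7.37, 12.1 and 8.396 CPM under vehicle. All 5 paclitaxel libraries lay below the vehicle mean, which vehicle replicate 4 raised, and vehicle replicate 1 lay lower than every paclitaxel library except replicate 3. The means were 6.22 ± 1.203 and 8.25 ± 2.49 CPM (SD, n = 5 each), a log2 fold change of -0.40 (SE 0.20, 95% interval -0.81 to 0.01; edgeR unadjusted p = 0.0556, adjusted p = 0.80). Leaving out vehicle replicate 4 gave -0.24, leaving out vehicle replicate 1 gave -0.52 (unadjusted p = 0.0117), and leaving out paclitaxel replicate 3 gave -0.30. It was -0.14 without both vehicle replicate 4 and paclitaxel replicate 3. Piezo1 shares part of its span with Ctu2 (12.9 CPM), and its expected counts were not whole numbers in all 10 libraries, as arises where RSEM divides a read between genes, so its level is uncertain.

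Across libraries Piezo1 moved with the genes of meninges and fibroblasts (Col1a1, Col1a2, Dcn, Lum, Igf2 and Slc6a13). Their summed level in paclitaxel replicates 1 to 5 was 57.2, 64.5, 52.0, 52.4 and 52.3 CPM, and in vehicle replicates 1 to 5 it was 50.3, 60.6, 56.8, 90.1 and 58.1 CPM. Igf2 alone gave 27.8 CPM of the sum in vehicle replicate 4, and the relation without Igf2 was not computed. Over the 10 libraries Pearson's r was 0.871 (permutation p = 3.9e-04, adjusted p = 0.00195 over 5 relations) and Spearman's rho 0.879 (p = 0.00144, adjusted p = 0.0072). Without vehicle replicates 1 and 4, the libraries farthest from the median of the sum, r was 0.713 (permutation p = 0.0418, adjusted p = 0.195), so its passing the threshold rested on those libraries. With endothelial markers, whose sum ranged from 109 to 189 CPM under paclitaxel and from 140.1 to 173 CPM under vehicle, r was 0.443 (permutation p = 0.199, adjusted p = 0.331; rho = 0.139, p = 0.705, adjusted p = 0.785; r = -0.106 without 2 libraries). The part of the meningeal genes in the Piezo1 difference was not tested. Relations within a treatment were not computed, since each had 5 libraries, and the labels give no batch.

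Piezo2 was at 7.50, 8.50, 3.82, 4.91 and 6.42 CPM under paclitaxel and at 8.32, 6.29, 7.48, 9.98 and 4.61 CPM under vehicle. The ranges overlapped almost fully, with paclitaxel replicate 3 lowest and vehicle replicate 4 highest. The log2 fold change was -0.18 (SE 0.22, 95% interval -0.64 to 0.28), -0.04 without paclitaxel replicate 3, -0.05 without vehicle replicate 4 and 0.09 without both. It was -0.34 without vehicle replicate 5 and -0.33 without paclitaxel replicate 2. The log2 ratio of Piezo2 to Piezo1 differed by 0.13 (two-sided exact permutation test, p = 0.635, adjusted p = 0.96), by -0.04 without vehicle replicate 5 and by 0.34 without vehicle replicate 1.

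The Tmem63 genes encode relatives of the osmosensitive OSCA channels of plants. Tmem63a, most abundant in oligodendrocytes, was at 158.2, 142, 121, 157.4 and 155.6 CPM under paclitaxel and at 147.7, 162.5, 145.4, 141.7 and 131.6 CPM under vehicle. Paclitaxel replicate 3 was lowest, and the log2 fold change was 0.01 (SE 0.07, 95% interval -0.14 to 0.16), with a sign that changed when single libraries were left out. Tmem63a moved with 7 myelin and oligodendrocyte genes across libraries (Pearson r = 0.793, permutation p = 0.00765, adjusted p = 0.0191; Spearman rho = 0.83, p = 0.00475, adjusted p = 0.0119). Their summed level ran from 20800 to 24700 CPM under paclitaxel and from 21420 to 23830 CPM under vehicle. Without paclitaxel replicate 3 and vehicle replicate 4, the libraries with the lowest sums, r was 0.651 (permutation p = 0.078, adjusted p = 0.195), so its passing the threshold rested on those libraries.

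Tmem63b was at 130.2 ± 3.40 CPM under paclitaxel and 130.3 ± 10.6 CPM under vehicle, and its span overlaps Mrpl14 (12.03 CPM). Its log2 fold change was -0.004 (SE 0.06), whose 95% interval from -0.13 to 0.12 spans a 0.913-fold to 1.09-fold ratio. The ratio of Tmem63b to Tmem63a had a log2 difference of -0.005 (two-sided exact permutation test, p = 0.96). Tmem63c was at 39.0 ± 4.38 and 37.7 ± 3.59 CPM (SD, n = 5 each; 0.05 on the log2 scale, SE 0.09), with -0.01 without paclitaxel replicate 2. Together the Piezo and Tmem63 genes made up 42.2% ± 1.23 of the summed CPM per kilobase of the 22 genes with paclitaxel and 41.4% ± 1.01 with vehicle (SD, n = 5 each).

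**Figure D4:**
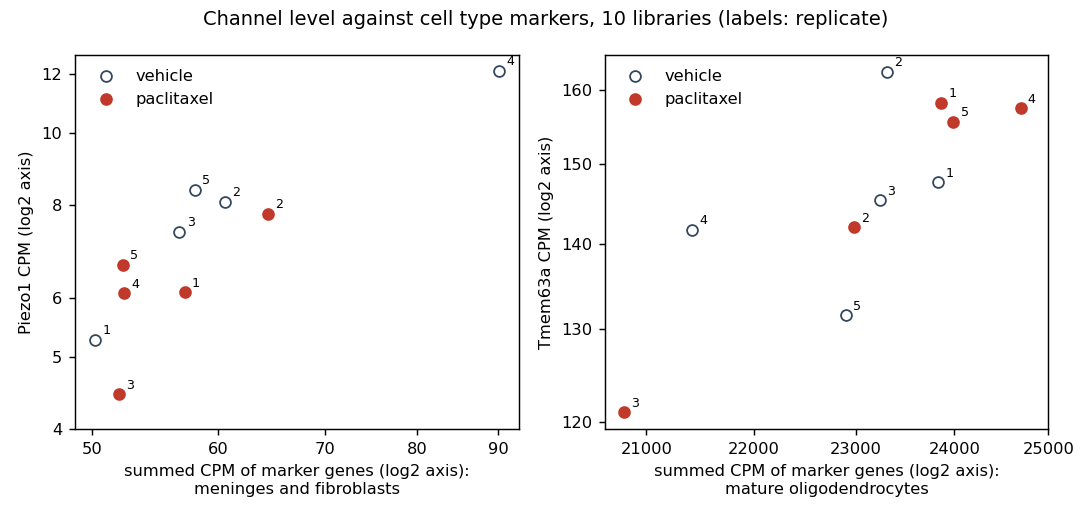
Piezo1 against the summed CPM of 6 genes of meninges and fibroblasts, and Tmem63a against the summed CPM of 7 oligodendrocyte genes, in each of the 10 libraries (log2 axes, replicate numbers beside the points). Vehicle replicate 4 lies at the top of the first panel and paclitaxel replicate 3 at the bottom of the second, and Pearson's r is 0.871 and 0.793.

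The canonical TRPC channels open after receptors activate phospholipase C. Of the tested TRPC genes 0 passed in edgeR, DESeq2, limma-voom or the likelihood ratio test, with 0 at an unadjusted p under 0.05 in edgeR. Trpc5 and Trpc4 encode close relatives found in neurons. Trpc5 was at 19.7, 21.3, 22.7, 11.7 and 11.9 CPM under paclitaxel and at 19.3, 19.9, 15.2, 20.4 and 13.2 CPM under vehicle. Paclitaxel libraries held both the highest values (replicates 2 and 3) and the lowest (replicates 4 and 5), with the vehicle libraries between them, and the log2 fold change was 0.009 (SE 0.20, 95% interval -0.42 to 0.43). Trpc4 was at 4.45, 2.59, 6.37, 4.64 and 4.40 CPM under paclitaxel and at 3.80, 3.49, 3.52, 3.26 and 3.59 CPM under vehicle. The vehicle libraries were nearly level, while paclitaxel libraries ranged from below to well above them (14 to 30 counts each). The log2 fold change was 0.33 with an SE of 0.22 (95% interval -0.13 to 0.79; edgeR adjusted p = 0.819). It was 0.49 without paclitaxel replicate 2 and 0.16 without paclitaxel replicate 3.

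Trpc1, whose product joins other TRPC subunits, was at 17.3 ± 1.56 and 18.0 ± 1.16 CPM under paclitaxel and vehicle (SD, n = 5 each; -0.05 on the log2 scale, SE 0.10). The log2 ratio of Trpc4 to Trpc1 differed by 0.35 (two-sided exact permutation test, p = 0.151, adjusted p = 0.377). Without paclitaxel replicate 2 it differed by 0.54 (exact p = 0.00794, adjusted p = 0.0397). That library had the lowest ratio of all 10 (0.147), and leaving it out separated the groups. Without paclitaxel replicate 3 the log2 ratio differed by 0.24 (exact p = 0.302, adjusted p = 0.734), so whether it passed rested on single libraries. Trpc7, a diacylglycerol-gated channel gene, was at 3.57 ± 0.857 and 3.69 ± 0.623 CPM (SD, n = 5 each). On the log2 scale Trpc7 differed by -0.05 (SE 0.23), by -0.20 without paclitaxel replicate 2 and by 0.08 without paclitaxel replicate 5. Trpc2, a pheromone signalling gene of the vomeronasal organ, was at 3.27 ± 0.933 and 2.60 ± 1.10 CPM, a log2 fold change of 0.29 (SE 0.31). Leaving out vehicle replicate 1 gave 0.09, vehicle replicate 5 gave 0.49 and paclitaxel replicate 2 gave 0.48. Trpc2 shares its span with the read-through gene Xntrpc and with Xndc1 (16.0 CPM), so its reads cannot be assigned with certainty. Trpc6 was not tested and had 0 to 8 counts per library.

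The vanilloid channels and Trpa1, the group most tied to heat and irritant pain, had few counts in the cord libraries apart from Trpv2. The capsaicin receptor gene Trpv1 had 1 count in each of the 5 paclitaxel libraries and in vehicle replicates 1 and 2, and 0 in the other vehicle libraries. These sum to 5 counts with paclitaxel (0.213 CPM, 95% Poisson interval 0.0691 to 0.497) and 2 with vehicle (0.0709 CPM, 0.00859 to 0.256), and the intervals, which cover counting error only, overlap. Every library held fewer than the 3 counts taken as the limit of detection, so no fold is given. By CPM the groups do not overlap (lowest with paclitaxel 0.1835, highest with vehicle 0.1808 CPM). Both values stand for 1 count, and they differ only through library size. Trpa1, the irritant receptor gene, had 0, 3, 2, 1 and 1 counts with paclitaxel and 3, 1, 1, 3 and 2 with vehicle, a pooled 0.298 CPM (0.12 to 0.614) against 0.355 CPM (0.17 to 0.652). A difference was not detectable at this depth. Trpm8 had 0, 1, 0, 1 and 0 counts with paclitaxel and 0, 0, 0, 1 and 1 with vehicle. Trpv3, a warmth receptor gene of skin, had at most 3 counts per library.

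Trpv4, an osmotic and mechanical sensor gene, had 7, 12, 6, 7 and 14 counts with paclitaxel and 7, 9, 3, 20 and 38 with vehicle. On the CPM scale vehicle replicates 4 and 5 reached 4.34 and 4.87, and the other 8 libraries stayed between 0.66 and 2.57 CPM. Trpv6, a calcium uptake channel gene of epithelia, had 4 to 12 counts with paclitaxel and 2 to 7 with vehicle. Trpv5, its closest relative, was at 0 counts in all 10 libraries, which allows a level of up to 0.058 CPM over the pooled libraries. Trpv2 was the exception in this group and was tested. It was at 17.8, 16.1, 14.4, 16.4 and 17.3 CPM under paclitaxel and at 13.7, 17.6, 16.1, 15.6 and 17.6 CPM under vehicle, with a log2 fold change of 0.02 (SE 0.11, 95% interval -0.21 to 0.25). Its product is a channel of neurons and immune cells.

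**Figure D5:**
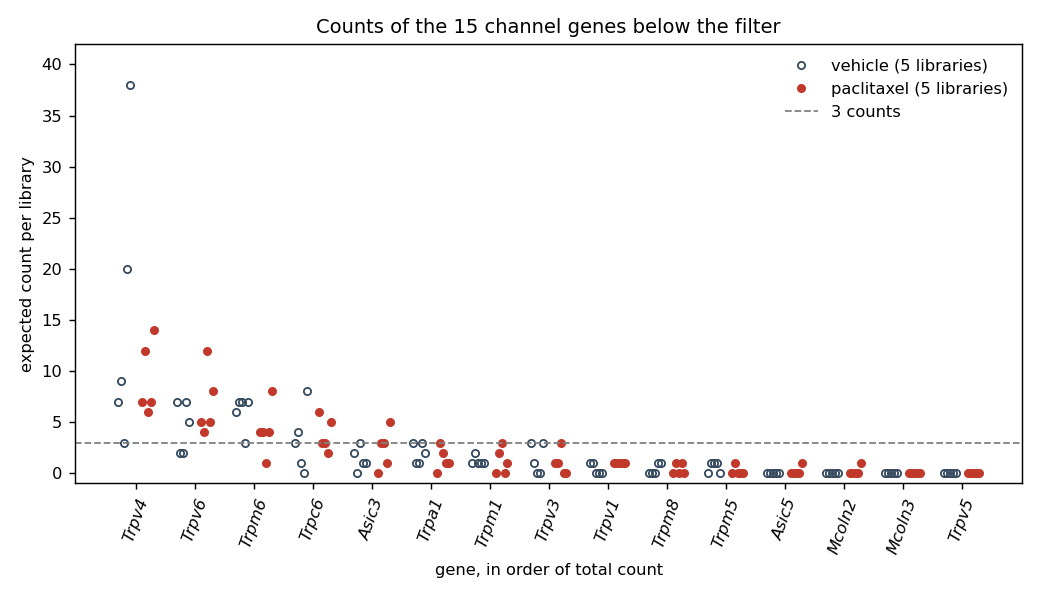
Expected counts per library of the 15 channel genes below the filter, ordered by total count, with a dashed line at 3 counts. Of these genes 10 stay at or under 3 counts in every library, Trpv1, Trpa1 and Trpm8 among them, and Trpv4 reaches 38 counts in vehicle replicate 5.

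Polycystins and mucolipins work in cilia and lysosomes. Mcoln1, the lysosomal calcium release channel, was at 51.6, 53.8, 54.3, 57.6 and 58.5 CPM under paclitaxel and at 56.9, 61.0, 62.0, 57.9 and 54.6 CPM under vehicle. The groups overlapped between 54.6 and 58.5 CPM, and the log2 fold change was -0.08 with an SE of 0.07 (95% interval -0.23 to 0.06; edgeR adjusted p = 0.848). Mcoln2 had 1 count in 1 library and Mcoln3 had 0, where 3 counts over the pooled libraries would be 0.058 CPM. Pkd2, a channel of primary cilia, was at 50.7 ± 2.65 and 51.7 ± 2.83 CPM (SD, n = 5 each; -0.03 on the log2 scale, SE 0.07). Its ratio to the partner gene Pkd1 had a log2 difference of -0.007 (two-sided exact permutation test, p = 0.905, adjusted p = 0.96), with a sign that changed when single libraries were left out.

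Pkd2l1 marks the neurons that contact cerebrospinal fluid around the central canal. It was at 18.8, 20.9, 15.5, 20.5 and 14.5 CPM under paclitaxel and at 16.1, 19.2, 15.8, 20.2 and 19.4 CPM under vehicle. High and low libraries occurred in both groups, and the log2 fold change was -0.02 (SE 0.12, 95% interval -0.27 to 0.23). The other markers of these neurons, Gata2, Gata3, Myo3b, Tal1, Espn and Pkd1l2, each with more than 3 counts in some library, summed to 19.0, 15.9, 14.4, 9.28 and 13.4 CPM under paclitaxel and to 20.6, 20.8, 18.7, 21.1 and 16.0 CPM under vehicle. Paclitaxel replicates 2 to 5 lay below every vehicle library. Of these genes 3 were tested, Pkd1l2 (described with the partner genes), Gata2 (log2 fold change -0.56, edgeR unadjusted p = 0.0136, adjusted p = 0.792) and Tal1 (-0.30, unadjusted p = 0.205, adjusted p = 0.832). Of the others, Gata3 averaged 0.627 and 0.867 CPM under paclitaxel and vehicle, Myo3b 1.19 and 1.16 CPM, and Espn 1.80 and 1.73 CPM. Over the 10 libraries no relation of Pkd2l1 to that sum was detected (Pearson r = -0.028, permutation p = 0.946, adjusted p = 0.946; Spearman rho = 0.103, p = 0.785, adjusted p = 0.785; r = 0.127 without 2 libraries). Pkd2l1 shares its span with Scd3 (8.37 CPM), and the strand setting of the counting is not given in the sources used here.

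Partners and regulators of these channels were listed by known roles, with earlier results of these data known. Of the 40 genes 35 were tested. None passed in edgeR, where their smallest adjusted p was 0.792. Of the 35, 1 with a higher and 2 with lower values had an unadjusted p under 0.05, where 2.94% and 3.12% of all tested genes did, and the median log2 fold change was -0.01. The lowest p belonged to Pkd1l2, a polycystin-1 relative found with Pkd2l1 in the neurons around the central canal and one of the marker genes above. It was at 5.16, 3.33, 3.18, 2.18 and 3.30 CPM under paclitaxel and at 6.15, 6.46, 4.18, 6.73 and 3.85 CPM under vehicle. Paclitaxel replicate 1 lay among the vehicle values and the other 4 below all of them (-0.65 on the log2 scale, SE 0.23; edgeR unadjusted p = 0.0102, adjusted p = 0.792). Prkca, a protein kinase C that sensitises several TRP channels, was at 107 ± 6.43 and 95.2 ± 4.53 CPM (SD, n = 5 each; log2 fold change of 0.16, SE 0.06, unadjusted p = 0.0153). Plcb3, the phospholipase C acting upstream of TRPC and TRPV1 channels, was at 21.5 ± 3.07 and 25.3 ± 2.34 CPM (log2 fold change of -0.22, SE 0.11, unadjusted p = 0.0456). Pdyn, the precursor of dynorphin, which binds ASIC1, was at 22.5 ± 3.69 and 19.7 ± 1.66 CPM (log2 fold change of 0.19, SE 0.11). It was at 0.11 without paclitaxel replicate 1.

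Spread within a group differed widely between genes. Coefficients of variation with paclitaxel and vehicle were 2.61% and 8.11% for Tmem63b, 5.18% and 5.17% for Mcoln1 and 5.22% and 5.47% for Pkd2, and reached 30.4% and 27.7% for Piezo2 and 28.5% and 42.3% for Trpc2. Trpc5 was at 30.1% and 18.3% with 43 to 115 counts per library. The lowest value of a gene fell most often in paclitaxel replicate 3 and vehicle replicate 1 (5 of the 22 genes each), and the highest in paclitaxel replicates 2 and 3 and vehicle replicate 4 (4 genes each).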

How the data were processed

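RNA-seq libraries of mouse lumbar spinal cord (5 paclitaxel, 5 vehicle) were compared. The authors deposited expected counts per gene without scaling. The submitters' processing notes name build mm10 and the tools STAR, RSEM and edgeR 4.2.0. The sources used here do not give the strand setting, the read filters, the annotation release or versions of STAR and RSEM. Values were not whole in 5.04% of cells and were rounded for testing.

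Channel genes are those whose symbols match the families named in the report. The channel genes and gene lists were chosen with earlier results of these data known. Counts were filtered with filterByExpr (minimum count 10, minimum total 15), scaled by TMM and tested with edgeR 4.0.16 (R 4.3.3; quasi-likelihood, robust, no covariates) over 13287 genes, with Benjamini-Hochberg adjustment and a two-sided threshold of 0.05. CPM used TMM-scaled library sizes summed over the tested genes. Standard errors were the size of the log2 fold change over the square root of F. Same-group libraries always differed by more than sampling (chi-square over degrees of freedom, 1.62 to 6.93), so none was taken as a library deposited again. The difference in totals between groups had an exact permutation p of 0.167 (two-sided).

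Exon lengths (union of exons of the matched transcripts) and GC content came from GENCODE M21, and coordinates and overlapping genes from RefSeq on GRCm38, which mm10 names. Relations over 10 libraries used 100000 permutations, two-sided, on log2 CPM. On 5 simulated sets of this comparison (13199 to 13212 genes, 200 of them changed), edgeR recovered 77.6% of 1.5-fold and 91.2% of 2-fold changes, with 7.35% false calls. In these sets no library was made to stand apart. With 200 changed genes the adjustment was also less strict than where few genes change. The rates average over genes of all levels, so they do not give the power for channel genes with low counts. Values in every library are given for Trpv1, Trpa1, Trpv4, Trpm8, Trpm2, Trpm7, Asic1, Asic2, Piezo1, Piezo2 and Pkd2l1, and for the 6 of lowest p; those of Trpc4, Trpc5, Trpv2, Tmem63a and Mcoln1 were added after their values were seen. Of the 22 tested channel genes, 1 enters the counts, medians and shares but is not reported here. Of the partner list the 4 of lowest p are named, and Gata2 was named after its value was seen. Alternatives were DESeq2 1.42.0 and its size factors, upper-quartile scaling, library totals, other filters, limma-voom (limma 3.58.1) with and without quality weights, the likelihood ratio test, the replicate number as a block, a loess correction for GC content and length, and each library left out. The fit without both paclitaxel replicate 3 and vehicle replicate 4, and the alternatives for partner genes, were added after the data were seen.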

Additional observations from a re-analysis of the deposited data

Results flagged for a closer look

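Among 54 groups of 5 libraries examined (22 tested channel genes and 5 ratios in each treatment), 4 held a library whose gap to its nearest neighbour took up an unusually large share of the group's range; chance gives this in about 1 of 20 groups. In paclitaxel replicate 3, Asic1 was at 77.3 CPM against 102.6 CPM in the next library, a gap of 0.725 of the range, and the log2 ratio of Asic2 to Asic1, which rests on the same Asic1 value, was -0.52 against -0.92 (0.725 of the range). In the same library Trpm7 was at 81.9 CPM against 68.0 CPM (0.715). In vehicle replicate 1 Trpm7 was at 77.9 CPM against 60.4 CPM (0.788).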

How the results depend on the processing

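Over the 22 alternative settings, 0 tested channel genes were called in any, and 13 of the 22 genes kept the sign of their fold change in all settings, Trpm2 (-0.18 to -0.10), Asic1 (-0.22 to -0.10) and Piezo1 (-0.52 to -0.14) among them. Over all genes, DESeq2 and the likelihood ratio test called 1 gene each (Klf4) and the replicate block 1 gene (Fos); none of these is a channel gene. Same-numbered libraries did not all deviate together (correlations from -0.103 to 0.143), so the numbers were not taken as pairs. With the replicate block 3 channel genes (Asic1, Trpm2, Trpm3) had an unadjusted p under 0.05, as did 839 of all genes tested, and for the ratios the block could not reach the threshold with 5 pairs, so it says nothing of their stability (Asic2 to Asic1, 0.2357, exact p = 0.125). Channel genes with an unadjusted p under 0.05 numbered 1 with the correction for GC content and length (589 over all genes), 0 without both paclitaxel replicate 3 and vehicle replicate 4, and 0 to 4 with each library left out (0 without paclitaxel replicate 3 or vehicle replicate 3, 4 without vehicle replicate 1). Over all genes that number was 515 to 1299 with each library left out and 508 without both. The median log2 fold change of the channel genes ran from -0.05 to 0.009 over all settings.

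Signs changed for 9 genes with log2 fold changes of at most 0.18 in size. Tmem63b was at 0.0003 with DESeq2 size factors, 0.0011 with upper-quartile scaling, and 0.0494 with the GC correction. Trpc5 was at -0.0098 in limma-voom, -0.13 with quality weights, -0.0029 in the likelihood ratio test, -0.0165 with the replicate block, -0.0034 with the GC correction and -0.0449 without both libraries. Without both libraries Piezo2 was at 0.0883 and Pkd2l1 at 0.0612. With each library left out, the ranges were -0.0854 to 0.0543 for Pkd2l1, -0.0265 to 0.074 for Tmem63a, -0.0427 to 0.0352 for Tmem63b, -0.0103 to 0.0954 for Tmem63c, -0.0971 to 0.1306 for Trpc5, -0.1995 to 0.0778 for Trpc7 and -0.0319 to 0.0604 for Trpv2. The log2 ratios ran from 0.1426 to 0.2813 for Asic2 to Asic1, -0.0412 to 0.3388 for Piezo2 to Piezo1, -0.0722 to 0.0671 for Tmem63b to Tmem63a, 0.2421 to 0.5405 for Trpc4 to Trpc1 and -0.036 to 0.0407 for Pkd2 to Pkd1. Without the 2 libraries farthest from the median of the marker sum, r was 0.105 for Trpm2, 0.651 for Tmem63a, -0.106 and 0.713 for Piezo1 with endothelial and meningeal genes, and 0.127 for Pkd2l1, which was at 0.0384 with the mean of the log2 markers. With that mean over all 10 libraries, r was -0.041 for Trpm2, 0.845 for Tmem63a, and 0.413 and 0.855 for Piezo1 with endothelial and meningeal genes. The cause of these changes was not tested. The number of channel genes at 1 CPM per kilobase or more was 20 with either exon length and 19 to 20 with each library left out.

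Depth limits the low genes: 15 of 37 fell below the filter. With no filter 35 were tested and 0 were called. A 3-count floor of 0.385 to 0.819 CPM in a library exceeds the levels of Trpv1 and Trpm8 in all libraries.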
